A study of Sus scrofa with 48 samples.

Results

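The acute phase proteins are plasma proteins that the liver makes in changed amounts during infection, injury or inflammation. The genes CRP, HP, ITIH4, LBP, ORM1, SAA1, SAA3, SERPINA3 and APCS were followed here in pig liver. Probes were taken as members when the gene name in the scanner output, or the gene to which the accession of the probe maps, was one of these 9 of the 11244 genes named on the array. The rule gave 24 probes, of which 6 were for HP, 5 for SAA3, 4 for ITIH4, 2 each for CRP, ORM1 and APCS, and 1 each for LBP, SAA1 and SERPINA3. Accessions named 16 of these probes and gene names the other 8.

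Liver RNA came from 48 purebred Large White barrows of 2 lines divergently selected over 8 generations for residual feed intake (RFI), the difference between the feed a pig eats and the feed predicted from its growth and fatness. The low RFI line (RFIneg, 24 pigs) eats less than predicted and the high RFI line (RFIpl, 24 pigs) eats more. From 74 d of age, 12 pigs of each line received a diet high in fat and fibre (HF) and 12 a diet low in both (LF). All pigs were sampled at 18.9 weeks of age, 2 h after the last meal, and every pig was hybridised to its own one-colour array. Each line is a single selected population, so selection and chance drift between the lines cannot be told apart. The question was how expression differed between lines and between diets.

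In the acute phase response, interleukin-6 from macrophages binds its receptor and gp130 on hepatocytes. Kinases of the JAK family then activate the transcription factor STAT3, which acts in the nucleus. Interleukin-1 and tumour necrosis factor act through NF-kappaB and C/EBP factors. Serum amyloid A and C-reactive protein can rise manyfold in plasma. Haptoglobin and ITIH4 are prominent acute phase proteins of the pig. Serum amyloid P component, the product of APCS, belongs with C-reactive protein to the pentraxin family and is an acute phase protein in some species only.

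The sequences of the SAA and APCS probes come first, since they set what each probe can distinguish. The 6 SAA probes are given 5′ to 3′ as the scanner output holds them, with a shared stretch of 35 bases in capitals.
O811 (SAA1): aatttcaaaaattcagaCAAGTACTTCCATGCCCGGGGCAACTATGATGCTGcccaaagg
A_72_P766152 (SAA3): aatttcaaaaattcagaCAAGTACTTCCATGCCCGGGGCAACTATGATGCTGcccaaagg
A_72_P760975 (SAA3): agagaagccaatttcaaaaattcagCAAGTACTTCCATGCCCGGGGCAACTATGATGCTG
A_72_P759880 (SAA3): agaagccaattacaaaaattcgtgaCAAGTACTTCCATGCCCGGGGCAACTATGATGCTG
A_72_P165616 (SAA3): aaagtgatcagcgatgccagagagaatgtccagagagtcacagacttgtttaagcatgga
A_72_P441669 (SAA3): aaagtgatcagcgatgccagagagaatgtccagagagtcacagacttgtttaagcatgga
The probe named SAA1 is identical over all 60 bases to one named SAA3, so this sequence cannot tell the transcripts of SAA1 and SAA3 apart. Whether A_72_P165616 and A_72_P441669, which lack the shared stretch, read SAA3 alone was not examined. Values for both names are given below as readings of SAA RNA, not as readings of separate genes.

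The APCS probes share no stretch with each other. The dim one, O1355, shares the 50 bases in capitals with a further probe, A_72_P060076, which lies outside the rule because the files give it no gene.
A_72_P146296 (APCS): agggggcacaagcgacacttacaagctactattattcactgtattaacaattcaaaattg
O1355 (APCS): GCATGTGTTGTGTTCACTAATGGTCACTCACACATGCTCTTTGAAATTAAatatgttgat
A_72_P060076 (no gene given): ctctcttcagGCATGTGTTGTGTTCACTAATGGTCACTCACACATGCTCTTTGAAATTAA
The reference gene table (assembly Sscrofa11.1) places APCS and a pair of adjacent CRP records on chromosome 4. It places SAA2, SAA3 and SAA4 on chromosome 2, ITIH4 beside ITIH3 on chromosome 13, and LBP beside BPI on chromosome 17.

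Intensities are on the scanner scale, and expression values are log2 of the background-subtracted intensity minus the median of the array, so 0 is the median probe tested. A probe was tested when it was well above background on at least 12 arrays, which 45236 probes were. All 24 member probes passed, 23 of them well above background on all 48 arrays, and all 48 arrays entered every fit of a member. Between 65.8% and 77.2% of probes were well above background on each array, and array medians of intensity lay between 53 and 126.4. The arrays lay on 6 slides of 8, each with 2 pigs of every group, and were scanned on 2 days of 24 arrays. The labelled tissue was checked with hepatocyte markers, of which 9 of 12 listed were tested, and albumin (ALB) had a mean log2 value of 11.14. Pigs are numbered here within a group in the order of their records, which pairs none of them. The array of one pig, replicate 12 of the high RFI line fed LF, had the highest values for 6 members, so results are also given without it.

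APCS was the only member called between the lines. Its bright probe was lower in the low RFI line, while a dim probe named APCS, near background on most high RFI arrays, was higher. The rule for a call was P under 0.01 with a fold change (FC) over 1.1, which 6.91% of all tested probes met for line. It was met by 2 of the 24 member probes, both of APCS, of which the dim one met the background filter through the low RFI line. Counted by gene, 4.78% of the named genes had a probe called higher in the low RFI line and 4.84% had one called lower. APCS was in both counts, in the first through its dim probe.

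The bright APCS probe, A_72_P146296 (mean intensity 20912), was under-expressed in low RFI pigs. With the HF diet its log2 value ran from 3.66 through a median of 6.45 to 7.27 in the low RFI line, and from 5.79 through 7.13 to 7.84 in the high RFI line. With the LF diet it ran from 5.15 through 6.42 to 7.79 in the low RFI line, and from 5.80 through 7.45 to 8.13 in the high RFI line. The groups overlapped, and 3 low RFI pigs fed HF (3.66, 3.83 and 4.78) lay below all other pigs.

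The log2 FC of the bright probe was −0.92 (SE 0.24, FC 1.9, P = 0.000304, P-BH = 0.0138 in limma, adjusted over all tested probes). It was −1.01 (SE 0.33) within the HF diet and −0.84 (SE 0.33) within the LF diet. Leaving out any single pig kept the call, with values between −0.99 and −0.82. In bulk tissue, fewer cells that express a gene and less RNA per cell cannot be told apart.

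The difference in bright APCS signal was uneven between scan days. It was −0.39 (SE 0.24, P = 0.127 in limma) over the 24 arrays of day 1, which is not a call, and −1.46 (SE 0.36, P = 0.000428) over those of day 2. The 3 lowest pigs were on slides 4 and 5, scanned on day 2. Within slides the difference was below 0 on 5 of 6 and ran from −2.12 to 0.15. The part of scan day in this difference was not tested.

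A probe outside the rule, identical over 60 bases to the bright APCS probe, repeated the reading on the same arrays. Its log2 FC was −0.93 (SE 0.24, P = 0.00029), it correlated with the member probe at r = 0.996 over 48 pigs, and the SD of their difference was 0.07. Both probes read the same RNA, so this is a check of spot noise and not a second sample of the animals.

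The dim APCS probe, O1355 (mean intensity 15.3), had higher values in low RFI pigs. It was well above background on 19 of 24 low RFI arrays and 9 of 24 high RFI arrays, so it met the filter of 12 arrays through the low RFI line. By group these were 10 of 12 low RFI and 5 of 12 high RFI pigs fed HF, and 9 of 12 low RFI and 4 of 12 high RFI pigs fed LF. With the HF diet its log2 value ran from −4.35 through a median of −2.89 to −1.41 in the low RFI line, and from −6.25 through −3.99 to −3.21 in the high RFI line. With the LF diet it ran from −4.55 through −3.26 to −1.79 in the low RFI line, and from −5.89 through −4.25 to −2.79 in the high RFI line.

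The log2 FC of the dim APCS probe was 1.16 (SE 0.26, P = 4.34e-05, P-BH = 0.00341 in limma). Its values were mostly not well above background in the high RFI line. Since it met the filter through the low RFI line, where it is high, neither its size nor its P is read as a measured difference. The groups overlapped. With the same limit, the difference was above 0 on 6 of 6 slides (0.77 to 1.62). It was 1.03 (P = 0.00735 in limma) on scan day 1 and 1.29 (P = 0.000882) on day 2. Its size depended on how background was removed, being 0.38 on intensities without subtraction and 0.24 after the normexp correction, both of them calls. The overlapping probe A_72_P060076 had a log2 FC of 1.0 (SE 0.22, P = 3.65e-05, P-BH = 0.00299 in limma) and correlated with O1355 at r = 0.714. It was well above background on 37 arrays, 23 of 24 in the low RFI line and 14 of 24 in the high RFI line. Since it shares most of its bases and all arrays with O1355 and is also near background, it is not independent support for the difference.

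Over 48 pigs the APCS probes were little related to each other (r = 0.21 within groups). Averaged over both probes, APCS had a log2 FC of 0.12 (P = 0.537 in limma). This mean weighs the dim probe, mostly not well above background in the high RFI line, as much as the bright one. It therefore cannot decide a direction for the gene as a whole, and none is given. Where either probe lies in the APCS transcript was not analysed here.

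**Figure D1:**
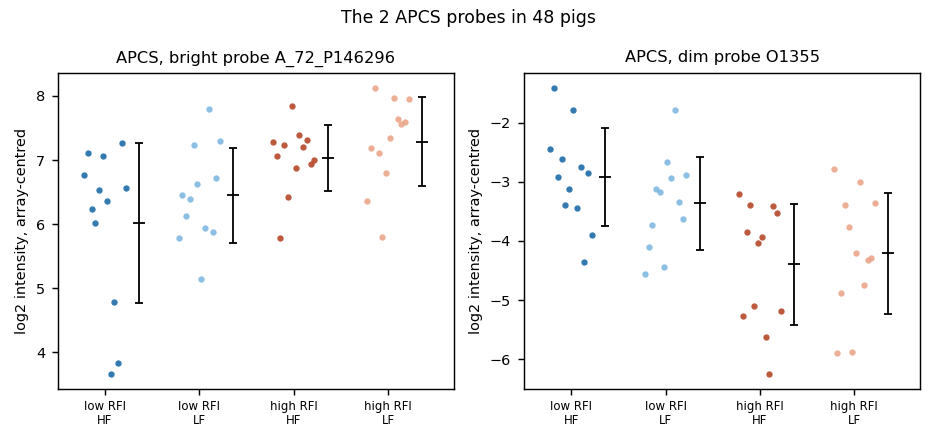
Log2 intensity centred on the array median (y axis) of the bright and the dim APCS probe in each of 48 pigs, by line and diet; points are pigs and bars are mean ± SD of 12 pigs. The bright probe had means of 6.02 and 6.45 in the low RFI groups against 7.03 and 7.29 in the high RFI groups, and the dim probe had means of −2.92 and −3.36 against −4.40 and −4.21.

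The 6 SAA probes had lower means in the low RFI line, with log2 FC from −0.81 to −0.68, but none was called. Serum amyloid A is carried on high-density lipoprotein and displaces apolipoprotein A-I from it during the response. The probe that stands for SAA3 (A_72_P165616) gave −0.71 (SE 0.31, P = 0.026, P-BH = 0.242), and SAA1 gave −0.76 (SE 0.35, P = 0.0368, P-BH = 0.291 in limma). By scan day, SAA3 gave −0.75 (P = 0.0323) on day 1 and −0.66 (P = 0.22) on day 2.

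With the LF diet the SAA3 value ran from 5.51 through a median of 6.48 to 8.2 in the low RFI line, and from 4.07 through 7.72 to 10.75 in the high RFI line. With the HF diet it ran from 6.43 through 7.48 to 8.89, and from 6.69 through 7.53 to 9.10. The high RFI pigs fed LF thus held both the lowest and the highest SAA3 value of all 48. The line difference was −1.22 (SE 0.43, P = 0.00742) with LF and −0.20 (SE 0.43, P = 0.653) with HF. The difference between these effects was 1.02 (SE 0.61, P = 0.104 in limma), so the line effect was not shown to differ between diets.

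Single pigs weighed on the SAA result. Without the pig lowest for SAA, replicate 8 of the high RFI line fed LF, the log2 FC of SAA3 was −0.87 (P = 0.00206) and 7 member probes were called in place of 2, the added 5 all of SAA. Without the highest pig, replicate 12 of the same group, the log2 FC of SAA3 was −0.57 (P = 0.0503). The array of replicate 8 had a median intensity of 72.59, inside the range of the others, and this pig ranked 2 of 48 for APCS.

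LBP codes for the protein that hands bacterial lipopolysaccharide to CD14. Its log2 value ran from −0.89 through a median of 1.26 to 2.85 in low RFI pigs fed HF and from 0.30 through 1.69 to 2.60 in high RFI pigs fed HF. With LF it ran from −1.04 through 0.89 to 1.97 in the low RFI line and from 0.33 through 1.28 to 4.04 in the high RFI line. The groups overlapped widely, and LBP gave a log2 FC of −0.52 (SE 0.24, P = 0.0364, P-BH = 0.289 in limma), which is not a call. The value was −0.40 (P = 0.0708) without replicate 12.

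CRP, which binds phosphocholine on microbes and damaged cells, had log2 FC of −0.22 (SE 0.27) and −0.16 (SE 0.33) for its 2 probes, with P of 0.414 and 0.635 in limma. Its brighter probe, O13103, ran from 5.44 to 8.66 in the low RFI line and from 5.73 to 9.96 in the high RFI line, with medians of 7.42 and 7.36. For CRP the line difference was 0.39 (P = 0.174) on scan day 1 and −0.83 (P = 0.0485) on day 2, neither of them a call.

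ITIH4, a heavy-chain protein of the inter-alpha-trypsin inhibitor family, had log2 FC between −0.35 and −0.15 over its 4 probes (P from 0.154 to 0.204). With LF the difference was −0.35 to −0.81 (P from 0.0201 to 0.0344), and with HF it was 0.06 to 0.12. The interaction of ITIH4 was 0.41 to 0.93 with P from 0.0567 to 0.0794 in limma, so none was called. The brightest ITIH4 probe had medians of 9.29 and 9.12 in low and high RFI pigs fed HF, and of 9.20 and 9.53 in those fed LF, all overlapping.

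HP, which codes for the haemoglobin-binding haptoglobin, gave small differences between the lines, none of them called. Its 6 probes had log2 FC between 0.01 and 0.05, with SE from 0.05 to 0.08. ORM1, coding for the lipocalin alpha-1-acid glycoprotein, gave −0.10 (SE 0.08, P = 0.2) and 0.04 (SE 0.06, P = 0.536). SERPINA3, a serine protease inhibitor, gave 0.13 (SE 0.13, P = 0.346), or 0.21 (P = 0.0483) without replicate 12.

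**Figure D2:**
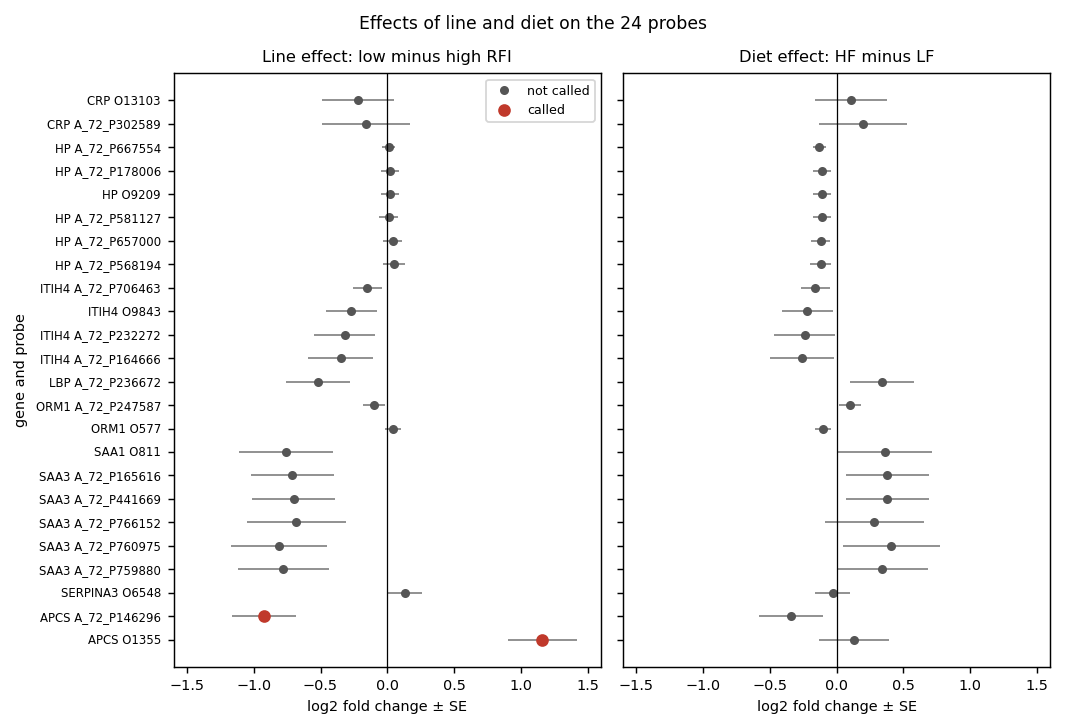
Log2 fold change ± SE (x axis) of the line effect and the diet effect for each of the 24 member probes (y axis), each from 48 pigs. The 2 APCS probes lie on opposite sides of 0 for line, at −0.92 and 1.16, and are the only points marked as called.

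No member was called for diet. The rule was met by 4.61% of all tested probes, with 2.88% of named genes called higher and 3.35% called lower with HF. Of the 24 member probes, 0 were called in limma and 1 had an unadjusted P under 0.05. This was the brightest HP probe, A_72_P667554, with a log2 FC of −0.13 (SE 0.05, P = 0.0214).

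The other 5 HP probes ran the same way for diet, from −0.12 to −0.11, with P between 0.106 and 0.155. The brightest HP probe had medians of 10.82 and 10.83 in low and high RFI pigs fed HF and of 10.93 and 10.98 in those fed LF, with overlapping groups. Its call was made when replicate 6 of the low RFI line fed HF was left out (P = 0.0089). SAA3 gave 0.38 (SE 0.31, P = 0.222) and LBP 0.34 (SE 0.24, P = 0.166) for HF minus LF.

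The ORM1 diet effect depended on scaling. The bright ORM1 probe gave 0.10 (SE 0.08, P = 0.205) after median centring and 0.19 (SE 0.07, P = 0.0083) after quantile normalization, under which it was called. The dim ORM1 probe, O577, gave −0.10 (SE 0.06, P = 0.108).

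The interaction of line and diet was called for 0 of 24 member probes, and 0 had an unadjusted P under 0.05. Among all tested probes 0.376% were called, and of the named genes 0.196% had a probe called with a higher value and 0.31% with a lower one.

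**Figure D3:**
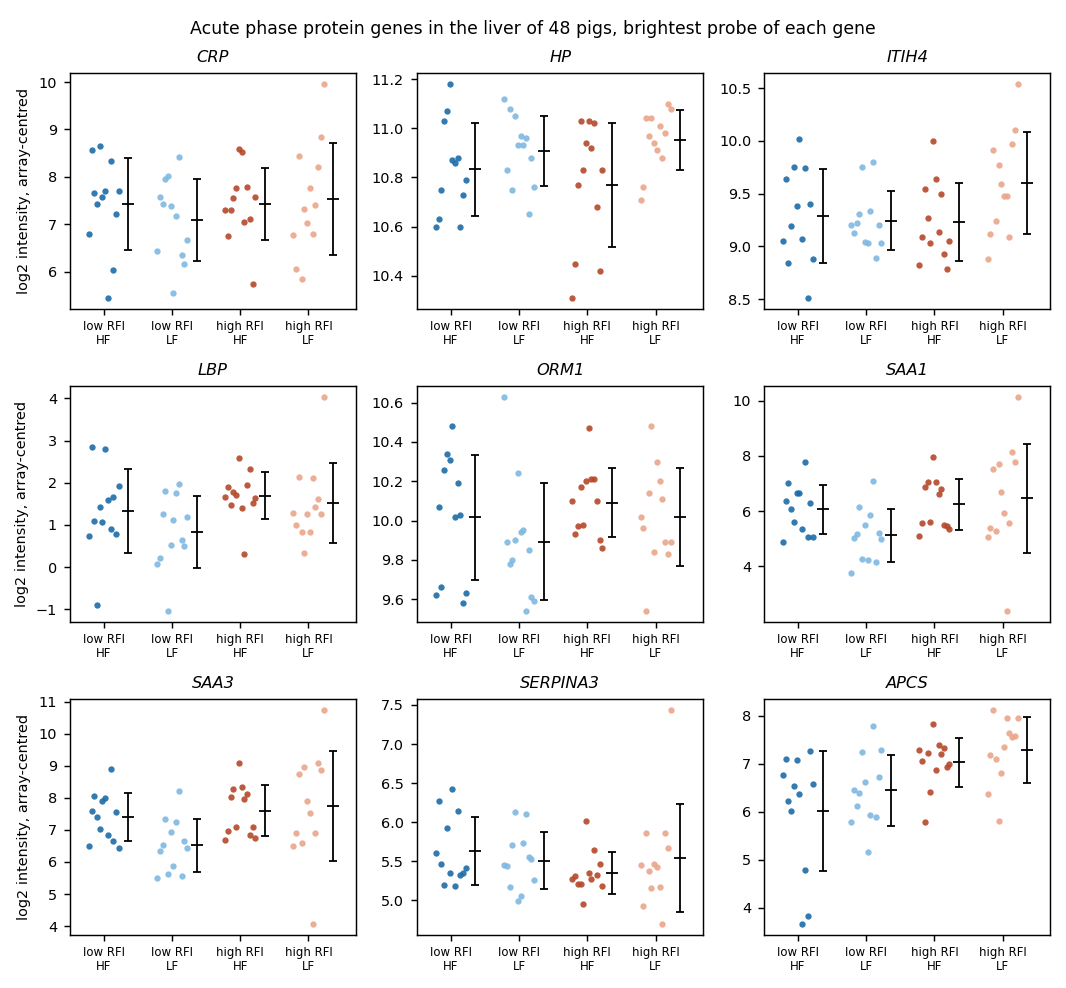
Log2 intensity centred on the array median (y axis) of the brightest probe of each of the 9 genes in 48 pigs, by line and diet; points are pigs and bars are mean ± SD of 12 pigs. HP and ORM1 were tight within groups, SAA1, SAA3, CRP and LBP were spread widely, and one high RFI pig fed LF lies on top for 6 genes, at 10.75 for SAA3.

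Several members varied widely between pigs of the same group. After group means were removed, the SD over 48 pigs was 1.1 to 1.31 for the SAA probes, at or above the 98.7th percentile of all tested probes. From the lowest to the highest pig, signal differed 103-fold on the brightest SAA3 probe and 214-fold on the SAA1 probe. The lowest pig was replicate 8 and the highest replicate 12, both of the high RFI line fed LF. Between the other pigs, log2 values ran from 5.51 to 9.1 for SAA3 and from 3.77 to 8.13 for SAA1. CRP (SD 0.956 and 1.17), LBP (0.859) and APCS (0.844 and 0.92) were also at or above the 96.7th percentile. SERPINA3 had an SD of 0.467, at the 80.6th percentile.

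HP was steady, with SDs of 0.182 to 0.29, between the percentiles 17 and 52.1. The centred value of its brightest probe correlated at −0.88 with the median intensity of the array. The part of array brightness in the spread of HP was not tested. ORM1 was as steady, at 0.267 and 0.214. ITIH4 stood between, and its probes differed: the SD was 0.401, 0.66, 0.809 and 0.85 for probes of mean intensity 130864, 45418, 5570 and 2059. The brightest ITIH4 probe ranged 4.07-fold over the pigs and the dimmest ranged 42.5-fold, although their correlations with one another were between 0.83 and 0.99.

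The spread was compared between the lines by a 2-sided permutation test of group-centred values, with adjustment over the 9 genes. Of the 9 genes 0 passed at an adjusted P of 0.05, and 1 had an unadjusted P below that. This was APCS, with an SD of 1.03 in the low RFI line and 0.61 in the high RFI line (permutation P = 0.0412, P-BH = 0.225). The SD of SAA3 was 0.79 in the low RFI line and 1.34 in the high RFI line (permutation P = 0.0776, P-BH = 0.225).

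Replicate 12 of the high RFI line fed LF ranked first of 48 pigs for CRP (9.96), ITIH4 (10.54), LBP (4.04), SAA1 (10.14), SAA3 (10.75) and SERPINA3 (7.44). It was 3rd for APCS, 4th for HP and 33rd for ORM1. The array of this pig was ordinary in brightness, with a median intensity of 68.72 (14th from the lowest) and 71.7% of probes well above background. Its correlation with the median profile of all arrays was 0.9886, the 3rd lowest in a range from 0.9876 to 0.994.

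Members tended to be high in the same pigs. Group-centred values were compared for all 36 pairs of the 9 genes, with 2-sided permutation tests within groups and adjustment over the pairs. The correlation passed at P-BH under 0.05 for 19 pairs, all of them positive, and Spearman's rho passed for 16. The median r was 0.34, and 31 pairs had the same sign on both scan days. Without SAA1, whose probe is identical to one named SAA3, 14 of 28 pairs passed. No gene split the pigs into separate clusters.

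The tightest relations joined CRP, ITIH4, SAA3 and SERPINA3. CRP and ITIH4 gave r = 0.75 (rho = 0.73, permutation P-BH = 6e-05), with 0.70 and 0.79 on the scan days and 0.73 without the 2 pigs farthest out in CRP. ITIH4 and SERPINA3 gave r = 0.75 (rho = 0.65, permutation P-BH = 6e-05), with 0.66 and 0.79 on the scan days and 0.69 without the 2 pigs farthest out in ITIH4. These P values rest on 1e-05, the smallest that the permutations can give.

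SAA3 followed ITIH4 at r = 0.68 (rho = 0.73, permutation P-BH = 0.000103) and CRP at r = 0.64 (rho = 0.63, permutation P-BH = 6e-05). SAA3 and SERPINA3 gave r = 0.58 (rho = 0.44, permutation P-BH = 0.0027) over all pigs, but 0.15 on scan day 1 and 0.75 on day 2, so this relation did not hold within the first day. CRP and SERPINA3 gave r = 0.65 (rho = 0.55, permutation P-BH = 0.00018), and 0.62 and 0.70 within days.

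The pentraxins CRP and APCS gave r = 0.50 (rho = 0.43, permutation P-BH = 0.0018), and 0.41 without the 2 pigs farthest out in CRP. APCS passed also with ITIH4 (r = 0.35, permutation P-BH = 0.0478) and SERPINA3 (r = 0.33, permutation P-BH = 0.0478), though rho did not pass for either. With SAA3, APCS gave r = 0.13 (permutation P-BH = 0.425).

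LBP passed with SERPINA3 only, at r = 0.52 (permutation P-BH = 0.00418), and that relation rested on few pigs. Its rho was 0.31 (P-BH = 0.0766), and r was 0.33 (permutation P-BH = 0.0814) without replicate 12. HP passed with ITIH4 (r = 0.56, permutation P-BH = 0.00032), CRP (r = 0.41), ORM1 (r = 0.40) and both SAA names (r = 0.35 and 0.34). ORM1 passed with HP alone, and its lowest value was −0.27, with APCS (permutation P-BH = 0.163).

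In all, 16 pairs passed without replicate 12 and 22 without replicate 8. On arrays of scan day 1 alone 7 pairs passed, and on those of day 2 alone 15 did. When the dimmest probe of each gene stood for it, 23 passed.

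**Figure D4:**
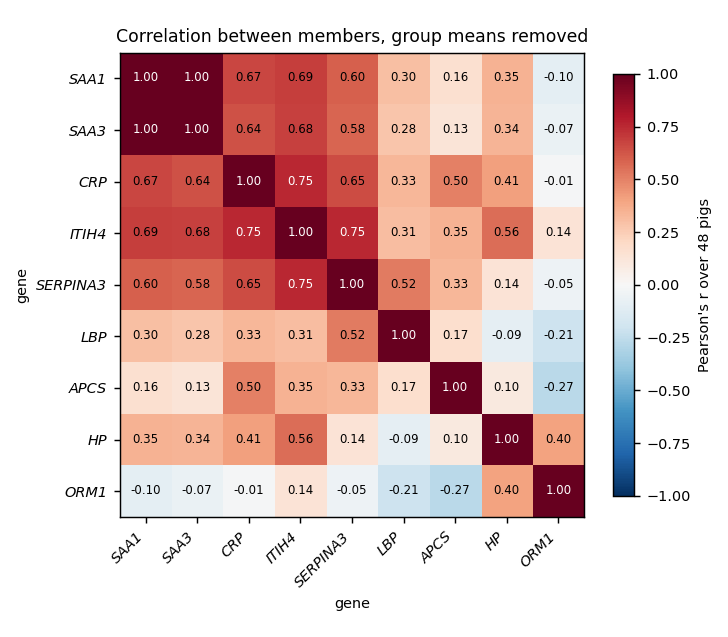
Pearson's r (colour scale) between the brightest probes of the 9 genes over 48 pigs, group means removed; both axes list the genes. CRP, ITIH4, SAA1, SAA3 and SERPINA3 form a block of r from 0.58 to 1.0. The SAA1 probe is identical to another SAA3 probe, not to the SAA3 probe drawn here. ORM1 correlates with HP at 0.40 and with APCS at −0.27.

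The choice of probe changed how HP related to the others. The correlation with CRP was 0.41 for the brightest HP probe, A_72_P667554 (mean intensity 376467), and 0.72 for the dimmest, A_72_P568194 (mean intensity 147998). With ITIH4 the brightest HP probe gave r = 0.56 on the brightest ITIH4 probe but 0.21 to 0.39 on the other ITIH4 probes. Between the dimmest probes of both genes r was 0.62. The centred value of the brightest HP probe correlated at −0.88 with the median intensity of the array, against −0.30 for the dimmest. For ORM1 this correlation was −0.32 on the bright probe and −0.67 on the dim one. For ITIH4 it was −0.39 on the brightest probe and between −0.25 and −0.06 on the others. For SAA, CRP, LBP, SERPINA3 and APCS it lay between −0.30 and 0.20. These are descriptions over 48 arrays that share a centring step, and the part of array brightness in the values of HP, ORM1 and ITIH4 was not tested.

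**Figure D5:**
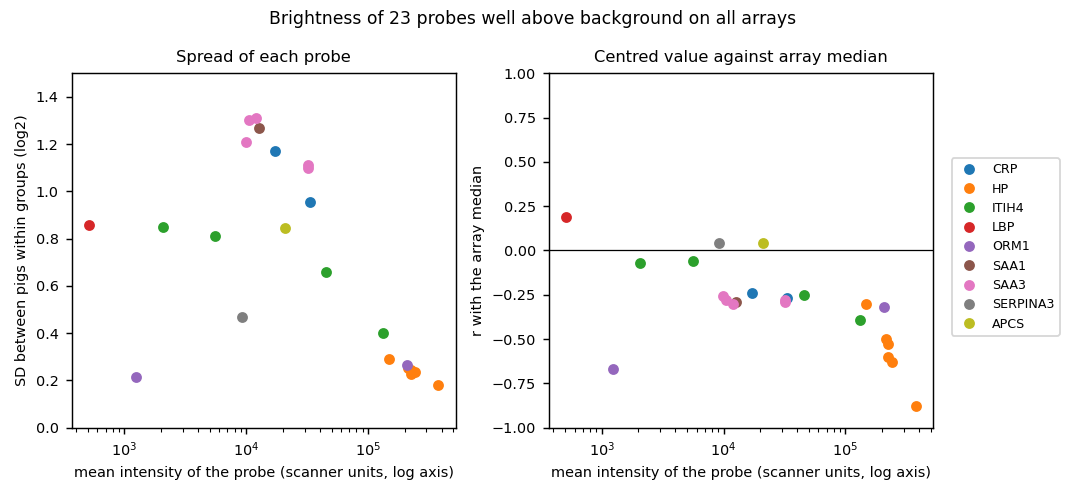
Mean intensity of each of the 23 member probes well above background on all arrays (x axis, scanner units, log scale) against its SD between pigs within groups (left, log2) and against the correlation of its centred value with the array median over 48 arrays (right). The brightest HP probe has the lowest SD, 0.182, and the most negative correlation, −0.88; the ITIH4 probes gain spread as they get dimmer, from 0.401 to 0.85.

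Other genes of the response were counted from fixed lists. Of the cytokines that induce the response and their receptors, 11 of 17 listed genes were tested. Between the lines, 1 of them was called higher and 2 lower in low RFI pigs, with a median log2 FC of −0.04 beside 0.01 over all named genes. IL10, an anti-inflammatory cytokine, was lower with 3 of 3 probes (−0.44 to −0.40, lowest P = 0.000136, P-BH = 0.00761), and its receptor chain IL10RB with 2 of 2 (−0.43 and −0.27). IL10 was also higher with HF on 2 of 3 probes (0.36 each). TNFRSF1A was called higher on 1 of 4 probes (0.16), a call lost under quantile normalization, while the other 3 gave −0.04 to −0.02. IL6 was on the array but was too dim to be tested.

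Of the signalling and transcription factors, 20 of 22 were tested, 2 were called higher and 3 lower in the low RFI line, with a median of 0.02. The kinase gene JAK2 was higher with 2 of 3 probes (0.15 and 0.25) while the other gave −0.13 (P = 0.0226), and TRAF6, an adaptor of the interleukin-1 pathway, with 1 of 2 (0.97, P = 5.12e-06, P-BH = 0.000763). CEBPB was lower with 1 of 2 probes (−0.29, P = 0.00768), PTPN11 with 1 of 3 (−0.15) and STAT3 with 1 of 5 (−0.28, P = 0.00776). The other STAT3 probes gave −0.14 to 0.10, so STAT3 has no single direction here.

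Among 18 tested of 25 other positive acute phase proteins, 0 were called higher and 3 lower in the low RFI line, with a median of −0.03. STEAP4, a metalloreductase, was lower with 2 of 2 probes (−0.27 and −0.26, lowest P = 0.00235). CFI, the complement factor I gene, was lower with 1 of 2 (−0.23, P = 0.00455), and so was ITIH3, next to ITIH4 on the chromosome (−0.35, P = 0.0051). None of these 3 genes reached a P-BH of 0.05.

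Of the negative acute phase proteins, whose plasma levels drop during the response, 13 of 15 were tested and 2 were called higher in the low RFI line, with a median of 0.04. APOA1, the main apolipoprotein of high-density lipoprotein, was higher with 4 of 4 probes (0.15 to 0.23, lowest P-BH = 0.017), though after 75th percentile centring or quantile normalization not every probe kept its call. PON1, a high-density lipoprotein enzyme, was higher with 1 of 2 probes (2.53, SE 0.42, P = 3.03e-07, P-BH = 0.00011) while the other gave −0.16. ALB was lower with HF on 7 of 21 probes (−0.26 to −0.10 over all 21), but 4 of these calls were left after 75th percentile centring and 0 after quantile normalization. Of 15 tested partners and receptors of the members, 1 was lower, the complement gene C1QA (−0.28 on 1 of 2 probes).

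Between scalings, all 60 calls on probes of the pathway and marker lists kept their direction, 56 were still calls after 75th percentile centring and 50 after quantile normalization. No gene of any list was called for the interaction. The median line effect of the 9 members themselves was −0.22, beside 0.01 over all named genes.

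Regulators named whatever their values were set against the mean profile of the 9 members over 48 pigs, as a description. SAA1 and SAA3 both enter this profile, so SAA RNA counts under both names in every r with it. STAT3 had the highest r, 0.71 (rho = 0.61), with 0.76 and 0.65 on the scan days and 0.58 without the 2 pigs farthest out. SOCS3, which codes for a feedback inhibitor induced by STAT3, gave 0.61 (rho = 0.50), and 0.59 and 0.66 within days. Replicate 12 also ranked first for STAT3 (1.5, next pig 1.21) and SOCS3 (3.68, next pig 3.4). IL6ST, coding for gp130, gave 0.46 (rho = 0.46).

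The NF-kappaB inhibitor gene NFKBIA gave r = 0.35 (rho = 0.37), but 0.59 on scan day 1 and 0.20 on day 2. CEBPD gave 0.31 (rho = 0.26), with 0.70 on day 1 and 0.06 on day 2. CEBPB (0.11) and IL6R (0.03) had the lowest r of these regulators over all pigs, but CEBPB gave 0.52 on day 1 and 0.06 on day 2. All points share the array and its centring with the members.

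Among 8469 named genes compared, those with the highest r with the mean profile of the members were GPC2 (0.86), FGG (0.81), SLC52A2 (0.81), MMAA (0.80), RECQL4 (0.78), ART4 (0.76), SLC24A2 (0.75), DEFB1 (0.74), CALY (0.73) and FGB (0.73). FGG and FGB code for chains of fibrinogen, itself an acute phase protein, and DEFB1 for an antimicrobial defensin. FGG gave 0.63 and 0.83 on the scan days, and GPC2 0.75 and 0.86. The lowest r belonged to BRPF1 (−0.66), SEC14L3 (−0.65), BBOX1 (−0.64), PSAT1 (−0.64) and PIGX (−0.64). Of these 15 genes, SLC24A2 (0.66, P-BH = 0.0125) and BBOX1 (0.29, P-BH = 0.00504) were higher in pigs from the low RFI line.

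Markers of other cells were read beside the members. Of 10 tested genes of Kupffer cells and macrophages, 3 had a probe called lower in the low RFI line, and the median line effect was −0.19. These were AIF1 (1 of 3 probes), C1QA (1 of 2) and VSIG4 (2 of 7), none of them on the brightest probe of the gene. CD5L, of the same list, gave 0.07 to 0.11 over its 5 probes, none called. Their summed log2 level ran from 8.91 to 9.33 and from 8.98 to 9.31 in low and high RFI pigs fed HF, and from 8.73 to 9.43 and from 8.82 to 9.40 in those fed LF. This sum correlated with the profile of the members at r = 0.39 and with SERPINA3 at 0.51. CD5L was the brightest of these markers (mean log2 8.53, next C1QB at 5.9), so CD5L weighs most in the sum. The brightest CD5L probe alone gave r = −0.01 with the profile, so the sum does not stand for each marker.

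Of 5 tested neutrophil markers, CXCR2 was lower in the low RFI line (−0.20, P = 0.00665), and MPO was too dim to be tested. Their summed level ran from 2.37 to 3.33 and from 2.59 to 3.52 in low and high RFI pigs fed HF, and from 2.71 to 3.37 and from 2.56 to 3.5 in those fed LF. It correlated with the profile of the members at r = 0.50. ELANE, the brightest of these markers (mean log2 2.32, next CXCR2 at 0.63), weighs most in this sum. The 9 hepatocyte markers correlated with that profile at 0.04 but with HP at 0.65. Their summed level and HP share the centring on the array median, and the part of array brightness in this r was not tested. Of the remaining cell lists, RGS5 (2 of 2 probes), ERG (1 of 2) and COL1A2 (1 of 4) had probes called higher in the low RFI line, and CD247 (3 of 3), KRT7 (1 of 1) and EPCAM (1 of 18) had probes called lower. With HF, CD247 was higher on 3 of 3 probes (0.40 to 0.46, lowest P-BH = 0.0124) and EPCAM on 5 of 18, and LUM was lower on 3 of 8. The cholangiocyte marker SOX9 gave 0.40 and 0.44 for line, neither called. Those lists gave r between −0.21 and 0.23. The part of cell composition in the results of the members was not tested.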

How the data were processed

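Arrays of 60306 probe spots (60305 different probes) were read for 48 livers. For each array the authors deposited the scanner output, with mean, median and background-subtracted intensity per spot and no normalization between arrays. The authors also deposited log2 values of filtered spots, centred on the median of each sample, made with R 2.10.0 per the labels; for 37379 probes they equal the log2 median intensity up to a constant per array.

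Here, control spots were left out, 483 outlier spots were set to missing, saturated spots numbered 0, and log2 background-subtracted intensities were centred on the median of the tested probes. Line, diet and their interaction were fitted with limma 3.58.1 in R 4.3.3 (prior degrees of freedom 2.8), with P-BH the Benjamini-Hochberg value over 45236 probes. The 12 pigs of a group are separate animals. In the gene lists, a gene was called when at least 1 probe was, and its brightest tested probe stood for it. The line effect was simulated over 45236 probes, with 200 probes drawn from all of them changed at each size. Calls were made for 89.0% of probes changed 1.41-fold, 98.5% of those changed 2-fold and 0.964% of unchanged probes. The SAA, CRP, LBP and APCS probes had SDs at or above the 96.7th percentile, so these rates were not shown to hold for them.

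The genes named are all members, list genes with a call, regulators fixed by name, and the 10 genes most and 5 least like the members; 1 gene within this rule is not reported here. The members and lists were chosen with earlier results of these data known. Correlations and spreads used 100000 permutations. Alternatives covered centring, normalization, background, filter, outlier spots, slide, scan day, the authors' log2 values and the model; leaving out pigs and taking the dimmest probe were chosen after seeing the data. A search for promoter motifs was not run. The number of arrays, and for dim probes the signal over background, limits precision.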

Additional observations from a re-analysis of the deposited data

How the results depend on the processing

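The 2 line calls were made under each other alternative to the fit, but 1 was made with probes well above background on all 48 arrays, which leaves the dim APCS probe out, and 1 on scan day 1 alone. Leaving out 1 pig at a time gave 2 to 7 line calls, 0 to 1 diet calls and 0 interaction calls. There was 1 diet call under quantile normalization (ORM1) and 1 without replicate 6 of the low RFI line fed HF (HP, −0.14). The bright APCS line effect turned to 0.15 on slide 3 alone and was −0.39 on scan day 1. The mean over both APCS probes was 0.12, with the dim probe weighed as much as the bright one. For the correlations, 7 pairs passed on scan day 1 in place of 19, and leaving out replicate 12 or replicate 8 gave 16 or 22; the cause was not tested. Signal over background limits what the dim APCS probe shows. No paired analysis was possible because the labels give every sample the same replicate number, and the numbers used here only name the pigs; the fit with slide as a block gave 2 line calls, 0 diet calls and 0 interaction calls.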
